A study of Mus musculus with 2 samples.

Results

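The 48 probes described here are those that a mouse expression array carries for the immunoglobulin loci, out of 41174 non-control probes in all. They were chosen by the gene name in the scanner files, by a rule that uses no signal but was set with earlier results of these data known. The rule takes every probe whose name starts with Igh, Igk, Igl-, Iglv or Iglc. It leaves out Igll1, a surrogate light chain gene, and Ighmbp2, a helicase gene. By name, 25 belong to the heavy chain, 15 to the kappa light chain and 8 to the lambda light chain, under 20 different gene names.

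The RNA came from LSK cells (lineage-negative, Sca-1 and c-Kit positive bone marrow cells), which include the haematopoietic stem cells and early multipotent progenitors. The 2 groups were wild-type C57BL/6 mice and PAD4-deficient (PAD4-/-) mice with the same C57BL/6 strain label, and each group had 1 array. PAD4, encoded by Padi4, is an enzyme that turns arginine into citrulline in histones and further proteins. The sources used here do not give the sex or age of the mice, any pooling of RNA, or the deleted part of Padi4. The single array of each genotype allows neither a test nor a check by replicates, and every error below is the scanner software's error of the spots alone.

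An antibody consists of heavy and light chains. In developing B cells the recombinase RAG1 and RAG2 joins a variable (V), a diversity (D) and a joining (J) segment of the heavy chain locus, and later a V and a J segment of the kappa or the lambda locus. The joined segments are transcribed together with a constant gene. The mu constant gene is used first, and class switching can replace it by a gamma, epsilon or alpha gene. Unjoined heavy chain V and mu segments are also transcribed in lymphoid progenitors as germline RNA, so a signal of such a probe does not by itself show a joined gene.

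A probe is called detected where the scanner software marked it as well above its background. Of all probes, 63.9% were detected in wild-type and 64.1% in PAD4-/- cells, and the 75th percentile of processed signals came to 814 and 786. Both arrays lay on 1 slide and came from the same scan, per the file headers. All 3 Padi4 probes were lower in PAD4-/- cells, with 21.2% to 24.2% of the wild-type level left. The arrays also differed in sex-linked transcripts: all 4 Xist probes were detected on the PAD4-/- array alone, and the 4 probes of Ddx3y, Eif2s3y and Kdm5d were lower there by log2 differences of -1.55 to -1.17. The sort markers Kit and Ly6a, which encode c-Kit and Sca-1, were bright on both arrays, with differences of 0.07 and -0.14 (error 0.20 each).

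Most detected light chain probes were higher on the PAD4-/- array, those of lambda by the most. Heavy chain probes went both ways. Of the 21 detected on both arrays, 15 were higher on the PAD4-/- array by any amount and 6 lower. Of all 25523 probes so detected, 13790 were higher by any amount. A probe counted as measured when it was detected on both arrays, which held for 31 of the 48. Differences are log2 of the processed signal, scaled to the 75th percentile of its array, PAD4-deficient minus wild-type. Of the 31, 9 probes (29.0%) were higher in PAD4-/- cells by 2-fold or more, beside 0.854% of all 25523 measured probes, and 3 (9.68%) were lower by as much, beside 0.454%. The median difference was 0.42 over the 31 members and 0.02 over all measured probes. By chain, the medians were 0.33 for 21 measured heavy chain probes, 1.10 for 5 measured kappa probes and 3.94 for 5 measured lambda probes.

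Of the 17 members that were not measured on both arrays, none was detected on the wild-type array alone. They comprised 9 that were detected on the PAD4-/- array alone and 8 that were so on neither. Among the 17, 8 (47.1%) were at least 2-fold higher by a lower bound, beside 1.5% of the 14862 probes that were not detected on the wild-type array. In that bound the wild-type value is the probe's own or, where that is smaller, the lowest of any detected probe. Of the 10 probes with the largest higher difference among all 25523, 5 were members, and 7 members were among the 50 largest (4 to 6 and 7 under the other background corrections and scalings). These members share targets and in places sequence, so the counts are of probes and not of separate genes.

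Names and positions of the probes disagreed in places, and positions (mouse build mm8) are used from here on. The heavy chain locus lies on chromosome 12, the kappa locus on chromosome 6 and the lambda locus on chromosome 16. By position, 24 probes fell in the heavy locus, 14 in the kappa locus and 8 in the lambda locus. A probe named Igh-6 (A_52_P162637), the old name of the mu gene, fell in the kappa locus. A pair of probes named Igkv14-111 (A_51_P264922 and A_51_P264914) fell on chromosome 12 outside the heavy locus, and the files describe their transcript as an envelope and superantigen RNA of mouse mammary tumour virus. Of 3 probes named Ighg for the gamma chain, 2 lay among the V segments. The RNA of many V segments is near-identical, so a probe may bind several of them, and how far it did was not tested.

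The heavy chain constant genes differed in direction between classes. At the low-coordinate end of the locus, where the reference order places the alpha gene, lay 3 probes named Igh, below a probe that the files describe as an I alpha transcript. Alpha is the heavy chain of IgA, the main antibody of mucosal surfaces. Probe A_51_P509679 (chr12:113706582-113706641) read 1707 in wild-type and 541 in PAD4-/- cells, a log2 difference of -1.61 (error 0.20). Probe A_51_P187645 (chr12:113706720-113706779) had 829 and 281, a difference of -1.51 (error 0.21). Probe A_51_P180159 (chr12:113706840-113706899) had 791 and 252, a difference of -1.60 (error 0.21). The 3 probes were thus lower on the PAD4-/- array by 2.85 to 3.05-fold and were the members with the lowest differences, at ranks 35, 37 and 43 from the lowest of 25523. They are not separate evidence of 3 genes, since they are neighbours and the files give them the same transcript record. One more probe of that record, Igh A_51_P391836, fell among the V segments (chr12:114045298-114045356) and had 81.1 and 50.3, a difference of -0.64 (error 0.24). The I alpha probe A_51_P270661 (chr12:113712756-113712814; named Igh-VJ558 in the files) covers the germline transcript that starts before the alpha gene. It had 53.3 and 51.8, a difference of 0.01 (error 0.25), so the alpha probes and the I alpha probe did not show the same difference.

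The gamma constant probe among the members went the other way. Gamma chains form IgG, the main antibody class of blood. Probe Ighg A_52_P74106 (chr12:113754262-113754321) read 164 in wild-type and 689 in PAD4-/- cells, a difference of 2.12 (error 0.21), or 4.35-fold higher. It lay between probes described as IGHG2C and IGHD, an interval in which the reference order holds Ighg2b, Ighg1 and Ighg3. Within that interval it lay between IGHG2C and the probes described as serum IgG1, where the order places Ighg2b. The name does not tell the gene, and no match of sequences was made. The rank of this probe was 34 among all measured probes by higher difference. Nearer to IGHD, the interval also holds 3 neighbouring heavy chain probes under other names, which did not share its difference. Their position and description place them at another gamma gene than A_52_P74106. Which gamma RNA each of these probes binds was not tested. On its other side, both IGHG2C probes were brighter on the PAD4-/- array (20.1 and 40.4, and 3.81 and 105). A_51_P122752 (chr12:113776734-113776793) had 111 and 104, a difference of -0.04 (error 0.22), and A_51_P461067 and A_52_P1054013, described as serum IgG1, were detected on neither array.

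The mu constant gene, which encodes the heavy chain of IgM, gave the highest signals of the members on both arrays. Probe Igh-6 A_52_P358360 (chr12:113866458-113866517) read 27164 in wild-type and 24998 in PAD4-/- cells, a difference of -0.07, within its error of 0.20. Probe Igh-6 A_51_P485421 (chr12:113869227-113869286) had 4308 and 5311, a difference of 0.35 (error 0.20). It was printed in several spots, with an SD between spots of 113 and 132 (n = 10 and 8 spots). A further mu probe outside the naming rule, described in the files as IGHM (A_52_P571419, chr12:113868697-113868756), had 17157 and 36597, a difference of 1.14 (error 0.20). The mu probes therefore did not give one size of difference: between their positions it ran from no difference beyond the error to more than 2-fold higher.

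The V segments of the heavy chain provide the antigen-binding end of the chain. Of 17 heavy V probes, 13 were measured, 11 above 0 and 2 below, and no measured one differed by 2-fold. Their median was 0.37. The highest wild-type signal was that of Igh-VJ558 A_52_P139027 (chr12:115655885-115655944), at 1043 in wild-type and 1378 in PAD4-/- cells and a difference of 0.45 (error 0.20). J558 is the largest V family of the mouse and lies mostly at the far end of the locus from the constant genes. Igh-VJ558 A_51_P476757 had 818 and 1097 (0.47), and Ighv1-77 had 600 and 752 (0.37). In each of these 3 probes the PAD4-/- signal was thus above the wild-type one, by less than 2-fold.

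The V probes are given here by their distance from the constant genes. The 9 V probes at the median distance of 1430 kb from the mu probes or farther were all measured and all above 0, with differences of 0.27 to 0.47, a median of 0.42 and wild-type signals of 74.3 to 1043. Each exceeded its spot error. Of all 25523 measured probes, 13790 were above 0 and 7856 exceeded their spot error in either direction. That error does not include the spread between arrays. Besides the probes already given, they were Igh A_51_P128248 (478 and 618), Igh-VJ558 A_51_P230716 (204 and 247), Ighv1-66 (452 and 527), and Igh-VJ558 A_52_P226877 (74.3 and 97.3), A_52_P686392 (586 and 755) and A_52_P151887 (469 and 567). Of those 9, the 3 that lie about 2531 kb away overlap each other by 7 to 57 bases and are not independent. The 8 V probes nearer to the constant genes had wild-type signals of 3.59 to 119, and 4 of them were measured, from -0.64 to 0.81. In that nearer group Igh A_52_P532769 had 52.2 and 88.6 (0.81, error 0.23), Ighg A_51_P275642, described as IGHV5-17, had 119 and 90.1 (-0.36, error 0.22), and Ighv1-2 had 45.7 and 47.7 (0.11, error 0.26). The remaining one is the alpha transcript's V probe given above. The split at the median distance was chosen after the values were seen and has no test, and signals of different probes do not rank transcripts, since their binding differs.

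The remaining heavy V probes were not measured on both arrays. Ighg A_51_P117903 (chr12:114379875-114379933), which the files describe with the same gamma chain record as the gamma constant probe, had 12.3 on the wild-type array, not detected, and 38.1 on the PAD4-/- array, at least 2.23-fold higher. Both Ighv6-6 probes and Igh A_51_P155336 were detected on neither array, with signals of 3.59 to 3.74.

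Kappa probes were dim on the wild-type array and mostly brighter on the PAD4-/- array. Kappa is the light chain that most mouse antibodies carry. No member was named or described as the kappa constant gene, so the kappa values here are of V segments by name or position. Igkv14-111 A_51_P390937 (chr6:68186355-68186414) read 97.0 in wild-type and 864 in PAD4-/- cells, a difference of 3.21 (error 0.21), or 9.22-fold. Igk-V33 had 27.5 and 83.0, a difference of 1.64 (error 0.30). Igk-V38 had 39.8 and 82.7, a difference of 1.10 (error 0.25). These were the 3 kappa probes at least 2-fold higher, and Igkv14-111 had the largest difference. Igk-V8-16 went the other way, with 39.9 and 24.4, a difference of -0.66 (error 0.33). The Igh-6 probe in the kappa locus (chr6:70270592-70270651) had 18.6 and 30.4, a difference of 0.76 (error 0.39). With normexp background correction (a model that subtracts local background while keeping every value positive) and an offset of 50, Igk-V33 gave 0.71 and Igk-V38 0.50, so both lost the 2-fold call, and the median of the measured kappa probes was 0.50 in place of 1.10. Igkv14-111 kept it at 2.56.

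A further 4 kappa probes were detected on the PAD4-/- array alone. Igk-V21-4 read 6.50 in wild-type and 130 in PAD4-/- cells, at least 7.59-fold higher. Igk-V21-12 had 12.2 and 67.7, at least 3.96-fold, and Igk-V19-14 had 8.85 and 63.0, at least 3.68-fold. Igk-V1 A_52_P125897 had 12.3 and 53.0, at least 3.097-fold higher. Each of these 4 probes was thus brighter in PAD4-/- cells and not detected in wild-type cells. The 5 other kappa probes (both Igkv1-135 probes, Igk-V1 A_52_P957659, Igkvk33-85 and Igkv12-38) were detected on neither array, with signals of 3.61 to 15.3 on the wild-type and 3.74 to 14.0 on the PAD4-/- array. Of the pair named Igkv14-111 outside the locus, A_51_P264922 had 34.5 and 45.6 (0.45, error 0.28) and A_51_P264914 had 17.7 and 27.9, at least 1.63-fold higher on the PAD4-/- array. They did not share the difference of the Igkv14-111 probe inside the kappa locus.

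Lambda probes differed more than any other group of members. The lambda locus of the mouse is small, with few V segments, and its chain is carried by a minority of antibodies. All 8 lambda probes are named Igl-V1, the older name of Iglv1, but by position they cover the constant side, the V-J join and the V segment. All 8 were higher on the PAD4-/- array: the 5 measured ones by 8.28 to 26.7-fold, and the 3 others by at least 9.16 to 14.1-fold.

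On the constant side, A_51_P503756 (chr16:18975296-18975355) read 59.9 in wild-type and 932 in PAD4-/- cells, a difference of 4.01 (error 0.22). A_52_P450277 (chr16:18975528-18975587) had 19.7 and 292, a difference of 3.94 (error 0.34). Both lie below the J end of the join probes, on the side where the reference order places Iglc1.

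A pair of lambda probes bridges V and J, with ends far apart in the unjoined genome. A_51_P503757 (chr16:18976818-18998635) read 21.5 in wild-type and 554 in PAD4-/- cells, a difference of 4.74 (error 0.34), the highest of all 25523 measured probes. With normexp and an offset of 50 it was 2.85 and ranked at 4, below A_51_P503756 (3.06). A_52_P383114 (chr16:18976803-18998617) had 4.15 and 157, at least 9.16-fold higher. Before any background was subtracted, the brighter of them read 86.3 over a local background of 43.0 on the wild-type array and 602 over 46.0 on the PAD4-/- array. Its wild-type signal lay just above the lowest signal that counted as detected there, 17.7.

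In the V segment itself, A_52_P672903 (chr16:18998738-18998797) had 39.7 and 352, a difference of 3.20 (error 0.25), and A_52_P622355 (chr16:18998817-18998876) had 37.1 and 297, a difference of 3.05 (error 0.25). A_52_P450276 had 9.79 and 241, at least 14.1-fold higher, and A_52_P829408 had 18.1 and 241, at least 13.8-fold higher. The V probes A_52_P829408, A_52_P450276 and A_52_P672903 overlap by 24 to 56 bases and report nearly the same stretch. The wild-type signals of the lambda probes, from 4.15 to 59.9, were close to the background, so the size of the folds depended on how it was removed. With normexp and an offset of 50 the median of the measured lambda probes was 2.13 in place of 3.94, and without an offset 3.12, and the 5 measured probes stayed at least 2-fold higher.

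In total RNA of a sorted pool, more cells of a type and more RNA per cell cannot be told apart, and this holds for every result here. Genes that act with the immunoglobulin chains were described by lists, with the brightest measured probe per gene. Over all 17019 measured genes, 2.88% were higher by 1.5-fold or more and 1.87% lower by as much.

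The recombination list had 1 of its 10 measured genes 1.5-fold higher and none lower, with a median difference of 0.06. That gene was Rag1, a recombinase subunit, at 103 in wild-type and 220 in PAD4-/- cells, a difference of 1.14 (error 0.21) and 0.88 at its lowest probe. Rag2, its partner, was detected on neither array (6.88 and 7.69). Dntt, the polymerase that adds bases at the joins, was very bright and had 91645 and 85554, a difference of -0.05 (error 0.20). Of these 3 genes, Rag1 alone thus differed by more than its error.

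The surrogate light chain and B cell receptor list had 5 of 13 measured genes 1.5-fold higher and none lower, with a median of 0.46. The surrogate light chain pairs with a new mu chain before any light chain exists. Vpreb1, one of its parts, had 3345 and 6510, a difference of 1.01 (error 0.20). Igll1, the other part, had 487 and 940, a difference of 0.998 (error 0.20), and its other probe was not measured. Vpreb2 (192 and 358) differed by 0.95 and Vpreb3 (1047 and 2285) by 1.18. Vpreb1, Vpreb2, Vpreb3 and Igll1 were therefore close to 2-fold higher, beside the larger differences of the lambda probes. Whether the Vpreb1 and Vpreb2 probes each bind only their own RNA was not tested. Cd79a and Cd79b, the signalling chains of the receptor, differed by 0.46 (error 0.24) and 0.17 (error 0.20). Fcrla, a B cell Fc receptor-like protein, was detected on the PAD4-/- array alone, at least 3.48-fold higher.

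Of the B cell factors, 4 of 12 measured genes were 1.5-fold higher and none lower, with a median of 0.16. Pax5, which fixes the B cell fate, had 72.5 and 164, a difference of 1.23 (error 0.22), and its other probe was not measured. Pou2af1, a coactivator at immunoglobulin promoters, had 667 and 1488, a difference of 1.21 (error 0.20). Irf8 (4482 and 7275) differed by 0.75, with 0.34 at its other probe, and Spib (72.2 and 105) by 0.59, which was under 1.5-fold in some of the alternatives (lowest 0.39). Ebf1, an early B cell factor, had 35.0 and 49.3, a difference of 0.55 (error 0.28), just under 1.5-fold. Most factors of this list thus lay within 1.5-fold.

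The secreted antibody and plasma cell list had 5 of 21 measured genes 1.5-fold higher and none lower, with a median of 0.20. Jchain, which links the antibody units of secreted IgM and IgA, read 279 in wild-type and 1485 in PAD4-/- cells, a difference of 2.46 (error 0.20), with 2.36 at its other probe. Irf4 (63.3 and 158) differed by 1.37 and Mzb1 (310 and 644), a chaperone of antibody assembly, by 1.11. Cd38 (19.2 and 35.9) differed by 0.96, and by 0.26 with normexp and an offset of 50, and Fkbp11 (923 and 1342) by 0.59 (lowest among the alternatives 0.53, under 1.5-fold). Plasma cell genes thus differed among themselves. Xbp1 and Sdc1, a factor of secretory cells and a plasma cell surface protein, differed by 0.14 and 0.03 (error 0.20 each), and Prdm1, a plasma cell factor, was detected on neither array. Tnfrsf17, a plasma cell receptor, and Slamf7 were detected on the PAD4-/- array alone, at least 3.06-fold and 4.07-fold higher. Of the class switch and mutation list, none of 7 measured genes was 1.5-fold higher or lower, with a median of 0.05.

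Markers of other cell types also differed between the arrays. In the B lineage list 5 of 10 measured genes were 1.5-fold higher and none lower (median 0.58), and its summed signal read 23256 in wild-type and 27938 in PAD4-/- cells. Such sums add unlike probes and are led by the brightest, in this list Ptprc (12177 and 11266). Blk of that list was detected on neither array, Cd22 on the PAD4-/- array alone, and Ms4a1, a marker of mature B cells, was dim on both (27.2 and 32.3). In the plasma cell list 3 of 6 were higher and none lower (median 0.62), with sums of 3188 and 4845. The lists of cells that make no immunoglobulin did not move alike. In the erythroid list all 3 measured genes were 1.5-fold higher (median 1.73), with sums of 425 and 1419. In the neutrophil list 2 of 5 were higher (2 to 4 under the other background corrections and scalings, median 0.58), with sums of 86774 and 127099. Most of these sums was the signal of Mpo (81966 and 118188). In the T cell list none of 4 was 1.5-fold higher or lower (median -0.31), with sums of 3677 and 2745. Its genes Cd3d, Cd8a and Trac were detected on the PAD4-/- array alone, at least 1.29, 4.42 and 1.42-fold higher, and Cd3g on neither. In the list for plasmacytoid dendritic cells, which also transcribe some immunoglobulin segments, 3 of 7 were higher and 1, Ccr9, lower (median 0.19), with sums of 28249 and 32045, and Siglech was detected on neither array. Of the 4 LSK markers, Flt3, a receptor of lymphoid-biased progenitors, was 1.5-fold lower (2439 and 1481). The part of these cell types, and of the sex-linked difference, in the immunoglobulin values was not tested.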

How the data were processed

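Both 1-colour arrays were of Agilent design 014868 (probe coordinates on mm8) and were read with Feature Extraction 9.5.3.1, per the file headers. Version 9.5 of Agilent Feature Extraction stands in the submitters' processing notes. The deposited scanner files give linear spot intensity, as the processed signal left after background subtraction, with its error. The deposited value table, on a log2 scale, was used as an alternative.

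Processed signals were averaged over unflagged spots, turned to log2 and reduced by the array's 75th percentile over non-control probes. The error is the spot error of both arrays combined. Control and flagged spots were left out, and 41170 probes remained. No spot of a member was saturated.

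The naming rule that takes the members uses no signal, but it and the lists were chosen with earlier results of these data known. Named were all constant-segment probes, members past 2-fold or with a bound past 2-fold, the 3 brightest of each chain, list genes past 1.5-fold and a fixed set of partner genes; other members are named to account for each. Some list genes that this rule takes are not reported here. The RefSeq table of GRCm38.p6 served for names and gene order only: 24492 probes matched by accession, 6234 by symbol and 2386 by synonym, and 8058 stayed under their array names. The assignment to segments by position was made after seeing the data. The steps were first tested on artificial arrays with known changes in bright probes. Changes in dim probes, such as those of kappa and lambda, and the lower bounds were not tested in this way. Python 3.11.15, numpy 2.4.6, pandas 2.3.3, statsmodels 0.14.6, R 4.3.3 and limma 3.58.1 were used.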

Additional observations from a re-analysis of the deposited data

How the results depend on the processing

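No paired analysis was possible because there was a single array per genotype, and there were no replicates to leave out. Of 169 comparisons of a result with an alternative, 150 kept the count within 1.5 times or the median within the spot error. The sign turned in 2. The class switch list median, 0.05 as reported, was -0.0081 with median scaling. The heavy constant median was 0.35 by gene name and -0.79 by probe position, where the 3 alpha probes count as constant, and the lambda variable median was 3.12 by position. With normexp and an offset of 50, the median was 0.50 for kappa (1.10 as reported), 2.13 for lambda (3.94) and 0.21 for the surrogate light chain list (0.46), and without an offset it was 0.79 for kappa and 3.12 for lambda; the variable-segment medians of these chains by name are the same values. The count of probes 2-fold higher, 9 as reported, was 17 when background had to be passed on 1 array, where the kappa median was 1.90, 18 without a filter, 14 with probes included by description and 5 with 1 probe per gene name. The count 2-fold lower, 3 as reported, was 5 at 1.5-fold and 1 with 1 probe per gene name. Of the 9 higher probes, 7 were kept with normexp and an offset of 50 and 8 without one. All 9 were kept with loess, with the deposited value table, with quantile or median scaling and with the percentile taken over detected probes, and the 3 lower ones were kept in each of these. The sign of the I alpha probe turned among the background corrections and scalings (-0.05 to 0.02). The alternatives by position, and without the pair outside the loci, were chosen after seeing the data. Signals near the background limit the kappa and lambda folds.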

Other observations

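A further 88 probes were described in the files as immunoglobulin chains but carry other gene names, so the naming rule left them out. Of these, 42 were measured, 5 were 2-fold higher in PAD4-/- cells and none was 2-fold lower, with a median difference of 0.47, beside 0.854% higher, 0.454% lower and a median of 0.02 over all measured probes. Detected on the PAD4-/- array alone were 15, on the wild-type array alone 1, and on neither 30, beside 874, 785 and 13988 of all 41170 probes. These probes report the same loci as the members and may share sequence with them, so they add no separate evidence.

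The lambda constant probe described as IGLC3 (A_51_P483576, chr16:18978932-18978991) was at 207 in wild-type and 3020 in PAD4-/- cells, a difference of 3.91 (error 0.21). Its wild-type signal lay well clear of the background, unlike those of the lambda members, and its difference was within the range of theirs. Of the heavy chain constant genes, the IGHG2C probes had 20.1 and 40.4 (1.06, error 0.37) and 3.81 and 105, the latter detected on the PAD4-/- array alone. IGHD, the delta gene, had 92.0 and 153 (0.78, error 0.21). IGHE A_52_P15658, of the epsilon gene, had 47.2 and 51.7 (0.18, error 0.26). None of the 88 was described as the alpha gene, so the lower alpha signal rests on the 3 neighbouring probes.

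Among the kappa probes, the one that the files name by its cDNA record alone (A_52_P614207, chr6:70537427-70537486) had 47.7 and 165 (1.84, error 0.23), and IGKV2-109 had 22.8 and 57.5 (1.39, error 0.32). IGKV5-48 read 3.84 in wild-type and 181 in PAD4-/- cells, where alone it was detected.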
